A study of Mus musculus with 6 samples.

Results

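The genes described here encode the SNARE proteins and the proteins that drive and time the release of synaptic vesicles. They were taken by symbol from the table of hippocampal counts: the synaptotagmins (Syt), the synaptotagmin-like genes (Sytl), the syntaxins (Stx) and syntaxin-binding proteins (Stxbp), the SNAP and VAMP genes, the complexins (Cplx), the synapsins (Syn), the SV2 genes and the Doc2 genes. The rule found 63 of the 15423 genes in the table, and all 63 passed the filter on low counts. One of them, Snap91, matched by name only, since it encodes the clathrin adaptor AP180 and not a SNARE. RNA-seq was performed on 3 Short Day (SD) mice and 3 control (CTR) mice, all C57BL/6J, an inbred strain. SD mice lived on an 8 h light, 8 h dark cycle through gestation and up to postnatal day 42, born to parents already on that cycle. CTR mice lived on a 12 h light, 12 h dark cycle. The labels number the SD mice 2, 5 and 6 and the CTR mice 1, 2 and 5, and they give neither litter, sex nor the age at tissue collection.

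A synaptic vesicle fuses when a SNARE on the vesicle (a VAMP, also called synaptobrevin) zips together with syntaxin and SNAP-25 on the plasma membrane. Complexins clamp the partly zipped complex, and synaptotagmins sense the calcium that enters with an action potential and trigger the final step. Synapsins tether the reserve of vesicles, and other SNAREs of the same families carry membrane between the Golgi, endosomes, lysosomes and the cell surface in every cell.

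Promoter windows were available from RefSeq (GRCm38.p6, the same build as mm10) for 47 of the 63 genes, as 60 windows that run from 250 bases before to 50 bases after a start site. Those of the 3 genes whose unadjusted p stayed at or under 0.05 in every alternative tried are shown, because the results turn on them. Syt2 has 2 windows, chr1:134646362-134646661 and chr1:134709050-134709349 on the plus strand. Vamp1 has a window at chr6:125215331-125215630 on the plus strand, and Vamp8 one at chr6:72390618-72390917 on the minus strand. Each is written 5′ to 3′ on the strand of its gene, and capitals mark GC boxes (GGGCGG, read on both strands, so that CCGCCC also counts).
Syt2 window 1: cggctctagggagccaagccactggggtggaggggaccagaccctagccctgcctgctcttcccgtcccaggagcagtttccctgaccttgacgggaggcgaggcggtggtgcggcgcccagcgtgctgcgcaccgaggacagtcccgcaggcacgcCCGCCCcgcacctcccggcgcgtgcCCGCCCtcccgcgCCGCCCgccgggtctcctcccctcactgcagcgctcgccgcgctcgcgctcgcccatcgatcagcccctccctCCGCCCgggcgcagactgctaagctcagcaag
Syt2 window 2: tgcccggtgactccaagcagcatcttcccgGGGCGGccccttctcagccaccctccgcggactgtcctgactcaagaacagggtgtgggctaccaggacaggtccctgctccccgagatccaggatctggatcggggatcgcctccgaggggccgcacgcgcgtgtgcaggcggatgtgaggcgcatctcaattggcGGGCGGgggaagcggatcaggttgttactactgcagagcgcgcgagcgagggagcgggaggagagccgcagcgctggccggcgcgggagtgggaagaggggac
Vamp1 window: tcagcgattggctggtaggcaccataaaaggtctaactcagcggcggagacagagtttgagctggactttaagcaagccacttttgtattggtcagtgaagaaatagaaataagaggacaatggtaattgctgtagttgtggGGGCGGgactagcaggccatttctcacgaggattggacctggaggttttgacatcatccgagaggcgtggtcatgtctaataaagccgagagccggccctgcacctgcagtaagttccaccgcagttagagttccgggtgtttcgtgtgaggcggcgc
Vamp8 window: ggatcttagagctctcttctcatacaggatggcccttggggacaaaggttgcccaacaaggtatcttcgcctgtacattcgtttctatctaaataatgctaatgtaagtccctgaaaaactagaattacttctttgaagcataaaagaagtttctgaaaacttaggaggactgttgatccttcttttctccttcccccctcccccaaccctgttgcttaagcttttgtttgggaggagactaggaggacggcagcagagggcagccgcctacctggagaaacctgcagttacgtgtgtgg
GC boxes were found 4 times and 2 times in the Syt2 windows, 1 time in the Vamp1 window and 0 times in the Vamp8 window. The G and C content was 74.3% and 68.3% in the windows of Syt2, 51.7% in that of Vamp1 and 46.7% in that of Vamp8. Over all genes described here, 61.7% of the 60 windows held a GC box, beside 35.7% of all 32851 mouse windows of the same length. Of the motifs that clock and activity-regulated factors bind, none of the 4 windows shown held one. The E-box CACGTG, which the clock proteins CLOCK and BMAL1 bind, was in 8 of the 60 windows (13.3%), beside 7.15% of all windows. Cplx3 held 2 E-boxes, at -85 and -55 from its start, and the other genes with one were Stx6, Stxbp2, Sv2b, Syt14, Syt6 and Vamp4. The D-box TTATGNAA was in 1 window (Syt1), the ROR response element TAGGTCA in 1 (Stx2) and the cAMP response element TGACGTCA in 2 (Stxbp3 and Syn1). In all windows these 3 motifs had shares of 3.39%, 2.61% and 1.79%, against 1.67%, 1.67% and 3.33% of the 60 windows, each motif read on both strands. These matches are letters in a window and not measured binding sites.

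Total counts were 25755316 to 34447082 in SD mice and 23300710 to 30035148 in CTR mice, and reads on the 63 genes made up 1.51 to 1.53% of them in SD mice and 1.52 to 1.59% in CTR mice. The labels and the paper differ on the material, since the extraction label speaks of cells and spheroids and the paper of dissected hippocampi. All 18 markers on a list for hippocampal principal neurons were detected in every mouse, with a summed level of 2813 to 3175 CPM (reads scaled to a common library size) in SD mice and 2877 to 2911 CPM in CTR mice. CTR mouse 5 had 30044 reads of Xist and 10 of Ddx3y, whereas the other 5 mice had at most 20 reads of Xist and at least 1652 of Ddx3y. The ribosomal RNA gene Rn45s took 1.84% of all reads in CTR mouse 1, whereas the other 5 mice had 0.164 to 0.231%. Without CTR mouse 5, 4 of the 63 genes were higher (Vamp8, Sytl4, Stxbp3 and Stxbp6) and 8 lower at an unadjusted p of at most 0.05 in edgeR. In that fit the groups did not overlap for 36.5% of the 63 genes and 30.6% of all genes. With all 6 mice these shares were 11.1% and 12.3%, and fewer mice separate more easily. The share of all genes at that p is not given here, so the counts are not read as a trait of the 63 genes. The mice were not stated to come from separate litters, and the p-values below measure only the spread between these 6 mice. In bulk tissue, fewer cells of a type and less RNA per cell cannot be told apart.

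The release genes were at nearly the same level in both groups, with a few exceptions among the calcium sensors, 1 complexin, 1 syntaxin, 2 vesicle SNAREs and 1 synaptotagmin-like gene. At the cutoffs of the study (p at or under 0.05 before adjustment, with a log2 fold change of 0.58 or more in either direction), 1 gene was higher in SD mice (Vamp8) and 2 were lower (Cplx3 and Sytl1). These 3 are 4.76% of the 63 genes, and 2.98% of all 15345 tested genes passed the same cutoffs (2.1% higher and 0.88% lower). With p of at most 0.05 at any fold change, 1 gene was higher and 7 were lower (Syt2, Syt7, Doc2a, Cplx3, Stx3, Vamp1 and Sytl1). These 8 are 12.7% of the 63 genes, beside 8.32% of all genes. The 7 lower ones are 11.1%, beside 3.68% of all genes that were lower, while 4.65% of all genes were higher. No gene, among these 63 or in the whole table, had a Benjamini-Hochberg adjusted p under 0.05 in the quasi-likelihood test of edgeR, and the smallest adjusted p among the 63 was 0.513. With DESeq2, the tool of the study, 2 of the 63 genes passed the cutoffs (2.05% of all genes), and 7 had an unadjusted p of at most 0.05 (7.61% of all genes), 6 of them lower (3.55% of all genes). By the same tool, 2 had an adjusted p under 0.05 (Syt2 and Vamp8), where 0.386% of all genes with an adjusted p did. The median log2 fold change was -0.03 over the 63 genes and 0.0015 over all genes, and 39 of the 63 (61.9%) lay below 0, beside 49.6% of all genes. For 48 of the 63 the log2 fold change was within 0.2 of 0, with a median standard error of 0.10. The groups did not overlap for 7 genes (1 higher and 6 lower), a share of 11.1% beside 12.3% of all genes (6.11% higher and 6.2% lower).

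**Figure D1:**
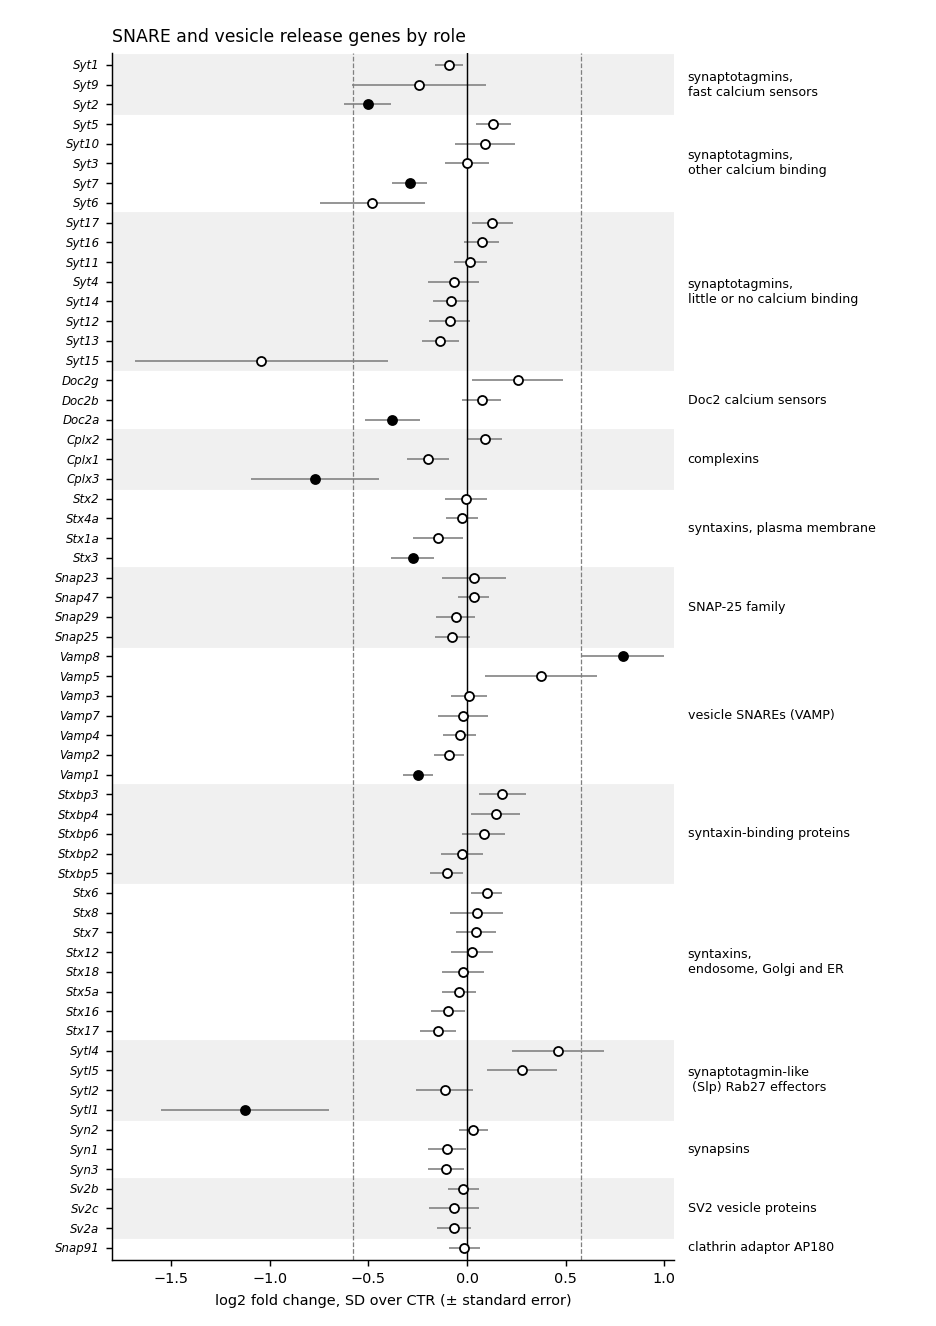
Log2 fold change of SD over CTR for 61 of the 63 genes, with bars of 1 standard error from edgeR, grouped by role and filled where the unadjusted p was at most 0.05, with dashed lines at the fold cutoff of 0.58. Vamp8 stands alone to the right at 0.79, and Sytl1, Syt15 and Cplx3 lie farthest to the left at -1.13, -1.04 and -0.77, while 46 of the 61 points are within 0.2 of 0.

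The most abundant genes, compared per kilobase of exon, were those of the core fusion machine. Cplx2 averaged 366 CPM per kb in SD mice and 344 in CTR mice, and Snap25 averaged 332 in SD mice and 350 in CTR mice. Vamp2 (252 and 269 CPM per kb in SD and CTR mice), Cplx1 (238 and 273), Syt1 (195 and 207), Syt11 (180 and 178), Snap47 (136 and 132) and Syn1 (135 and 145) came next. In this list neighbours differ by little, and none of these genes had an unadjusted p of at most 0.05 between the groups in edgeR. The lowest level belonged to Syt15, with 0.120 CPM per kb in SD mice and 0.242 in CTR mice. Of the 8 genes with p of at most 0.05, Syt7 was the most abundant (45.6 CPM per kb in SD mice and 55.7 in CTR mice), and the other 7 were under 15 CPM per kb in both groups. The value of Vamp1 (126 and 149 CPM in SD and CTR mice) rests on a GENCODE model with 10167 bases of exon. That model ends at 125245964, beyond the RefSeq end at 125222306, so the value per kb may be too low. Per kb, the 8 genes were thus below the abundant genes listed here. They were not below the whole fusion machine, since Syt7 was above the syntaxin gene Stx1a (38.8 CPM per kb in SD mice and 43.0 in CTR mice).

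**Figure D2:**
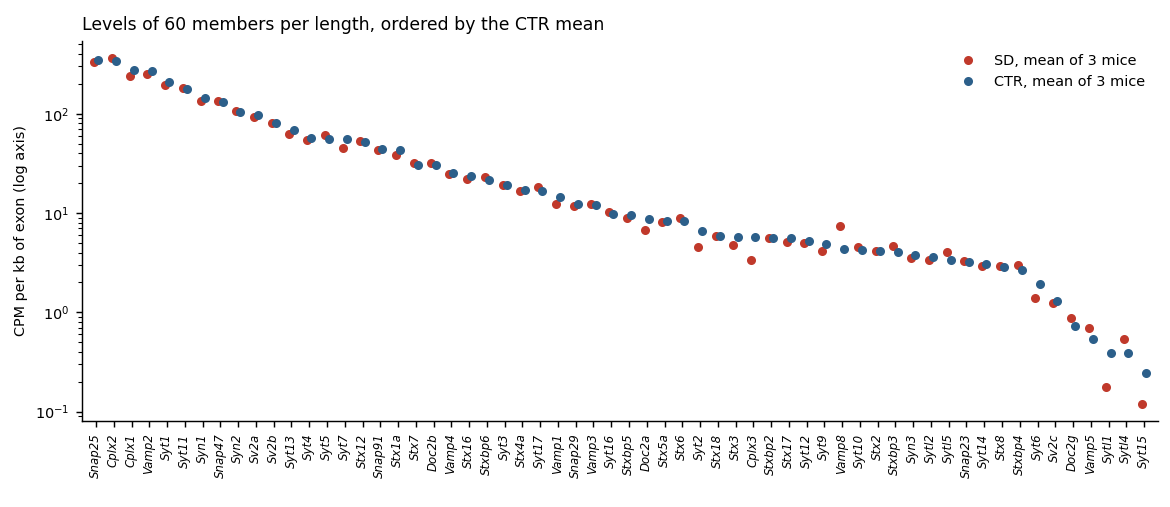
Mean level of each gene in SD mice and in CTR mice, in CPM per kb of exon on a log axis, ordered by the CTR mean, for 60 of the 62 genes with a single GENCODE gene model. The levels span from 0.120 for Syt15 to 366 for Cplx2 in SD mice, and the points of both groups nearly coincide for most genes.

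Among the fast calcium sensors of release, Syt1, Syt2 and Syt9, the difference was in Syt2, the sensor of many fast inhibitory synapses, those of parvalbumin interneurons among them, and of many brainstem synapses. Syt2 had 29.9, 40.7 and 34.6 CPM in SD mice 2, 5 and 6, against 53.3, 51.0 and 45.2 CPM in CTR mice 1, 2 and 5. Every SD mouse was below every CTR mouse. Its level was 29.5% lower in SD mice (35.1 ± 5.44 CPM, against 49.8 ± 4.17 CPM in CTR mice, SD of 3 mice each), with a log2 fold change of -0.50 ± 0.12 (SE; edgeR, adjusted p = 0.513, DESeq2, adjusted p = 0.0346). Without each mouse in turn the log2 fold change was -0.63 to -0.40, and the unadjusted p stayed below 0.05 each time. The gene lies at chr1:134646677-134762593 on the plus strand. Syt1, the main sensor of forebrain synapses, had 1592, 1651 and 1624 CPM in SD mice, against 1668, 1750 and 1769 CPM in CTR mice. These groups did not overlap either, but the gap was small (log2 fold change -0.09, SE 0.073, adjusted p = 0.782 in edgeR). Syt9, named here after its values were seen, had 17.4, 12.7 and 19.1 CPM in SD mice and 10.3, 15.2 and 32.5 CPM in CTR mice, a wide overlap with CTR mouse 5 the highest (adjusted p = 0.888, edgeR).

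The mix of the fast sensors is given as shares, which hold the same reads and are not a further result. Syt1, with 195 CPM per kb in SD mice and 207 in CTR mice, made up most of the sum, so the share of Syt2 mainly restates its level. Of the summed level per kb of Syt1, Syt2 and Syt9, Syt2 made up 1.96, 2.58 and 2.22% in SD mice and 3.33, 3.03 and 2.62% in CTR mice. The share was 2.26 ± 0.311% in SD mice and 2.99 ± 0.357% in CTR mice, and the lowest CTR mouse was just above the highest SD mouse. With 3 mice against 3, an exact permutation test cannot go below 0.10, so the shares are given without a test.

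Markers of interneurons in general, and of neurons of neighbouring regions, are given beside Syt2. The parvalbumin gene Pvalb, the marker of fast-spiking interneurons, had 28.5, 30.7 and 28.8 CPM in SD mice and 28.0, 44.6 and 30.4 CPM in CTR mice (log2 fold change -0.23, SE 0.16, adjusted p = 0.731, edgeR). The 14 markers on a list for GABAergic interneurons summed to 1434 to 1530 CPM in SD mice and 1401 to 1557 CPM in CTR mice. Of the 14, 1 was lower at p of at most 0.05, namely Vip (log2 fold change -0.37, adjusted p = 0.553 in edgeR). On a list of 13 markers of thalamic neurons, 9 were lower at p of at most 0.05, 8 of them past the fold cutoff, in edgeR, and 5 and 4 in DESeq2. Their sum was 297, 244 and 216 CPM in SD mice and 228, 450 and 329 CPM in CTR mice, and no marker was at 0 in any mouse. On a list of 11 neocortical markers, 5 were lower at p of at most 0.05 by either tool and none was at 0. Their sum was 533, 548 and 529 CPM in SD mice, against 607, 608 and 567 CPM in CTR mice. Striatal and hypothalamic lists went the other way: 2 of 10 and 4 of 7 measured markers passed the cutoffs as higher by either tool, with sums of 174 to 192 CPM and 12.6 to 36.9 CPM in SD mice, against 142 to 153 CPM and 5.32 to 8.97 CPM in CTR mice. The part of these cells in the Syt2 difference, and in those of the other genes described here, was not tested.

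**Figure D3:**
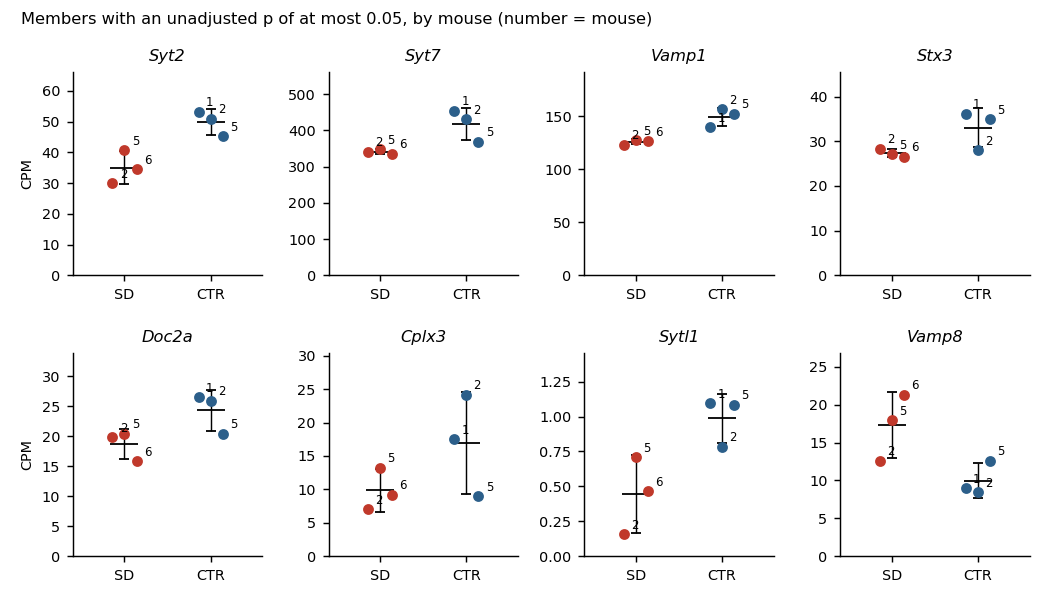
Level in CPM (axes from 0) of the 8 genes with an unadjusted p of at most 0.05 in each SD mouse and each CTR mouse, numbered as in the labels, with the mean and SD of each group as lines. SD mice lie below CTR mice without overlap for Syt2, Syt7, Vamp1 and Sytl1, above them for Vamp8, and overlap them for Doc2a, Cplx3 and Stx3.

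Among the other calcium-binding synaptotagmins, Syt7 was lower. It is a slow, high-affinity sensor known for asynchronous release, facilitation and vesicle replenishment. Its level was 341, 347 and 335 CPM in SD mice, against 454, 430 and 368 CPM in CTR mice. The SD mice were close together and all below the CTR mice, of which mouse 5 was nearest to them. Syt7 differed by a log2 fold change of -0.29 ± 0.089 (SE; edgeR, adjusted p = 0.513, DESeq2, adjusted p = 0.187), which is 18.2% lower in SD mice. The gene lies at chr19:10389090-10453180 on the plus strand. Leaving out a mouse moved the log2 fold change between -0.37 and -0.23, with the strongest difference without CTR mouse 5.

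Syt3, Syt5, Syt6 and Syt10, the other calcium-binding members, did not pass. Syt3 and Syt5 had log2 fold changes of 0.0012 and 0.13. Syt6 had 8.19, 7.11 and 8.97 CPM in SD mice and 8.54, 7.88 and 17.3 CPM in CTR mice, so that only CTR mouse 5 stood away (log2 fold change -0.48, adjusted p = 0.656 in edgeR, and -0.020 without that mouse). Of the summed level per kb of these 4 genes and Syt7, Syt7 made up 33.3, 36.6 and 33.7% in SD mice, against 42.6, 40.2 and 38.9% in CTR mice, without overlap (34.5 ± 1.82% in SD mice and 40.5 ± 1.87% in CTR mice). This share holds the same Syt7 reads and is not a further result.

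The 8 synaptotagmins that bind little or no calcium held no gene with p of at most 0.05, and their median log2 fold change was -0.07. Without CTR mouse 5, Syt13 was lower by this measure (log2 fold change -0.23, against -0.14 with all mice). Syt11, a vesicle protein linked to the control of endocytosis and the most abundant of them, had 944, 921 and 947 CPM in SD mice and 964, 985 and 833 CPM in CTR mice. Its log2 fold change was 0.016 with an SE of 0.084. Syt15 had the largest fold change of the group (-1.04, SE 0.64, adjusted p = 0.702 in edgeR) on very few reads, 11, 22 and 24 in SD mice and 9, 13 and 86 in CTR mice. The 86 reads of CTR mouse 5 set that value, which without this mouse was 0.43 and of the other sign.

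Doc2a and Doc2b encode soluble, high-affinity calcium sensors tied to spontaneous and asynchronous release. Doc2a had 19.8, 20.4 and 15.8 CPM in SD mice, against 26.6, 25.9 and 20.4 CPM in CTR mice. SD mouse 5 and CTR mouse 5 were level, and the other SD mice were below all CTR mice. The log2 fold change was -0.38 ± 0.14 (SE; edgeR, adjusted p = 0.553), a level 23.1% lower in SD mice. Without CTR mouse 1, CTR mouse 2 or SD mouse 6 it no longer passed an unadjusted p of 0.05. Its exons (chr7:126847416-126852705, plus strand) overlap those of Ino80e on the opposite strand, and the counting used strand. Doc2b, the more abundant form, had 129, 132 and 157 CPM in SD mice and 146, 125 and 127 CPM in CTR mice (log2 fold change 0.07, adjusted p = 0.885 in edgeR). Doc2a thus made up a smaller part of both genes' level per kb in every SD mouse, at 19.3, 19.4 and 13.5%, against 22.1, 24.4 and 20.02% in CTR mice.

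**Figure D4:**
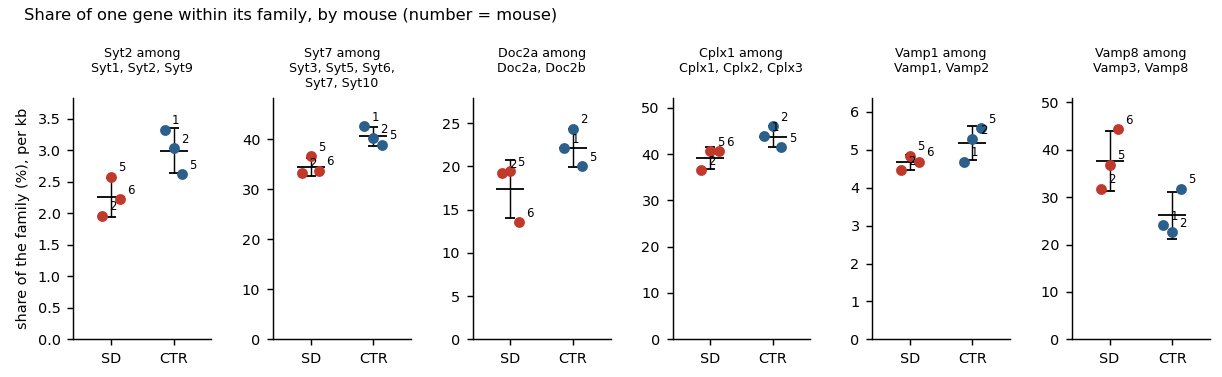
Share of a gene in the summed level per kb of its own family, in percent, for each SD mouse and each CTR mouse, with the family named above each panel and the mean and SD as lines. SD mice lie below CTR mice without overlap for Syt2, Syt7, Doc2a and Cplx1, overlap them for Vamp1 and lie above them for Vamp8, where SD mouse 2 and CTR mouse 5 both had 31.8%.

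Of the complexins, Cplx3 passed the cutoffs of the study. This small membrane-anchored form is best known from ribbon synapses of the retina and from subplate neurons of the cortex. Cplx3 had 7.06, 13.3 and 9.18 CPM in SD mice, against 17.5, 24.2 and 8.97 CPM in CTR mice. CTR mouse 5 lay within the range of the SD mice, and the other CTR mice were above it. The log2 fold change was -0.77 ± 0.32 (SE; edgeR, adjusted p = 0.575), and the gene lies at chr9:57599992-57606281 on the minus strand. It rested on single mice, since the unadjusted p was above 0.05 without CTR mouse 1, CTR mouse 2, SD mouse 2 or SD mouse 6 and with DESeq2, and the log2 fold change was -1.08 without CTR mouse 5. Cplx2, the main complexin of the hippocampus here, averaged 1803 CPM in SD mice and 1693 CPM in CTR mice, a log2 fold change of 0.09 (SE 0.089, adjusted p = 0.825 in edgeR). Cplx1, which the rule for naming genes did not pick and which is given after its values were seen, had 489, 508 and 567 CPM in SD mice and 642, 644 and 506 CPM in CTR mice (log2 fold change -0.20, adjusted p = 0.651 in edgeR). CTR mouse 5 again lay among the SD mice, and without it the log2 fold change of Cplx1 was -0.30 with an unadjusted p under 0.05. As a share of the 3 complexins per kb, Cplx1 had 36.5, 40.6 and 40.6% in SD mice and 43.9, 46.0 and 41.5% in CTR mice.

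Of the plasma membrane syntaxins, Stx3 alone had an unadjusted p of at most 0.05 with all mice. Stx1a, a neuronal syntaxin of the release machine that is named here after its values were seen, had 96.5, 111 and 103 CPM in SD mice and 118, 134 and 92.5 CPM in CTR mice (log2 fold change -0.15, adjusted p = 0.800 in edgeR). CTR mouse 5 had the lowest value of all, and without it the log2 fold change was -0.28 with an unadjusted p under 0.05. Stx3, a syntaxin of apical membranes, ribbon synapses and dendritic receptor insertion, had 28.3, 27.1 and 26.6 CPM in SD mice and 36.2, 28.0 and 34.9 CPM in CTR mice. CTR mouse 2 was level with SD mouse 2, and the other CTR mice were above every SD mouse. The log2 fold change of Stx3 (chr19:11775118-11819403, minus strand) was -0.28 ± 0.11 (SE; edgeR, adjusted p = 0.565), and it no longer passed an unadjusted p of 0.05 without CTR mouse 1, CTR mouse 5, SD mouse 5 or SD mouse 6. In the SNAP-25 family no gene passed, and the 4 log2 fold changes lay between -0.08 and 0.034. Snap25, the highest of all 63 genes in CPM, had 2247, 2286 and 2233 CPM in SD mice and 2098, 2524 and 2507 CPM in CTR mice, so that the SD mice lay inside the range of the CTR mice.

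The vesicle SNAREs held one lower and one higher gene among 7. Vamp1, a vesicle SNARE best known from motor and other fast-firing neurons, had 123, 127 and 126 CPM in SD mice, against 139, 156 and 152 CPM in CTR mice. The groups were apart, and the SD mice were within 5 CPM of each other. Vamp1 (chr6:125215551-125245964, plus strand) differed by a log2 fold change of -0.25 ± 0.078 (SE; edgeR, adjusted p = 0.513, DESeq2, adjusted p = 0.215), 15.8% lower in SD mice, and stayed between -0.30 and -0.21 without each mouse in turn. Vamp2, the main vesicle SNARE of forebrain synapses, had 985, 937 and 963 CPM in SD mice and 1060, 1051 and 965 CPM in CTR mice (log2 fold change -0.09, SE 0.075, adjusted p = 0.786 in edgeR). The share of Vamp1 in both genes' level per kb overlapped between groups, at 4.47 to 4.85% in SD mice and 4.69 to 5.57% in CTR mice, with the long GENCODE model of Vamp1.

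Vamp8, also called endobrevin, is a SNARE of late endosomes and lysosomes, of autophagosome fusion and of secretion in epithelial and blood cells, and was the only one of the 63 genes that was higher in SD mice at p of at most 0.05. It had 12.6, 18.0 and 21.3 CPM in SD mice (325, 531 and 737 reads), against 8.94, 8.41 and 12.6 CPM in CTR mice (204, 204 and 383 reads). SD mouse 2 and CTR mouse 5 were nearly level, and all other SD mice were above all CTR mice. The level was 73.1% higher in SD mice (17.3 ± 4.40 CPM, against 9.98 ± 2.27 CPM in CTR mice, n = 3 each), with a log2 fold change of 0.79 ± 0.21 (SE; edgeR, adjusted p = 0.513, DESeq2, adjusted p = 0.0402). Without each mouse in turn it was 0.61 to 1.00, with the unadjusted p below 0.05 each time. The gene lies at chr6:72385223-72390703 on the minus strand. Vamp3, the cellubrevin of recycling endosomes, averaged 35.3 CPM in SD mice and 35.0 CPM in CTR mice, so that Vamp8 made up 37.7 ± 6.29% of both per kb in SD mice and 26.1 ± 4.94% in CTR mice. Vamp4, Vamp5 and Vamp7 did not pass (log2 fold change -0.04, 0.37 and -0.020), and Vamp5 had only 39, 56 and 77 reads in SD mice and 42, 23 and 48 in CTR mice.

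Marker lists of non-neuronal cells are given beside Vamp8. The 16 markers on a list for the epithelium of the choroid plexus summed to 4067, 11428 and 11318 CPM in SD mice and to 2823, 427 and 4751 CPM in CTR mice, and 15 of the 16 were higher at the cutoffs of the study in edgeR and 6 in DESeq2. SD mouse 2 was below CTR mouse 5 in that sum, so that the groups overlapped. Of 12 markers of oligodendrocytes 9 were higher at p of at most 0.05, with sums of 9191 to 11114 CPM in SD mice and 7205 to 9357 CPM in CTR mice, and of 12 markers of ependyma 7 were, with sums of 79.2 to 102 CPM in SD mice and 39.5 to 85.2 CPM in CTR mice. On the lists of astrocytes, microglia and endothelial cells none was higher at p of at most 0.05 by either tool, 1 astrocyte marker was lower, and the medians of the log2 fold changes were -0.018, 0.034 and -0.084. No marker on these 6 lists was at 0 in any mouse. The part of these cells in the Vamp8 difference was not tested.

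**Figure D5:**
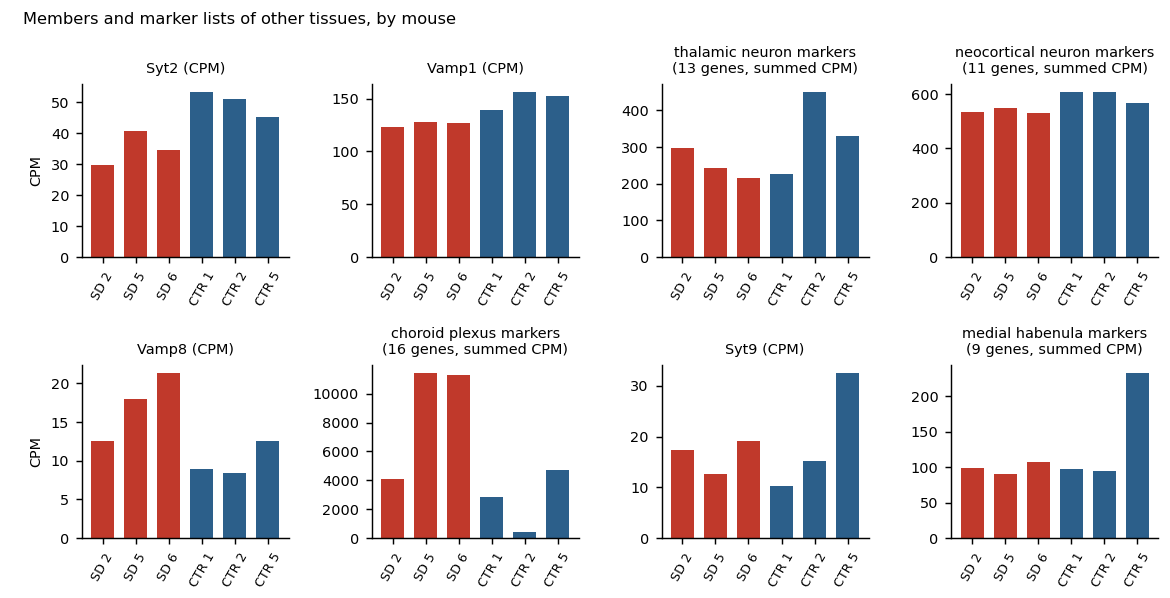
Level of Syt2, Vamp1, Vamp8 and Syt9 and summed level of 4 marker lists, all in CPM with axes from 0, as 1 bar for each SD mouse and each CTR mouse. Neocortical sums are lower in every SD mouse, choroid plexus sums are highest in SD mice 5 and 6, and the medial habenula sum of CTR mouse 5 (232 CPM) stands above that of the other 5 mice (90.2 to 107 CPM).

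The remaining families were flat or rested on few reads. None of the 6 Stxbp genes passed, and Stxbp3, a syntaxin-binding protein of non-neuronal secretion, averaged 24.8 ± 1.51 CPM in SD mice and 21.9 ± 3.33 CPM in CTR mice (log2 fold change 0.18, adjusted p = 0.729 in edgeR, and 0.31 with an unadjusted p under 0.05 without CTR mouse 5). None of the 8 syntaxins of endosomes, Golgi and endoplasmic reticulum passed either, with log2 fold changes between -0.15 (Stx17, the syntaxin of autophagosomes) and 0.10 (Stx6). Synapsins and SV2 proteins, the vesicle tethers and the abundant vesicle glycoproteins, likewise had no gene that passed. Syn2, the highest of the synapsins in CPM, averaged 745 ± 27.7 CPM in SD mice and 728 ± 20.2 CPM in CTR mice, and Syn3 had a log2 fold change of -0.11 (SE 0.091). Sv2b averaged 669 ± 14.2 CPM in SD mice and 677 ± 47.6 CPM in CTR mice, and Sv2a had a log2 fold change of -0.07 (SE 0.088). Snap91 was level at 395 ± 9.79 CPM in SD mice and 399 ± 29.4 CPM in CTR mice.

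The synaptotagmin-like genes encode effectors of Rab27 in the secretion of dense granules. Sytl1 passed the cutoffs on 4, 21 and 16 reads in SD mice and 25, 19 and 33 reads in CTR mice, or 0.155, 0.711 and 0.463 CPM against 1.10, 0.784 and 1.08 CPM. The groups were just apart, and the lowest value was that of SD mouse 2. The log2 fold change of Sytl1 (chr4:133253090-133263113, minus strand) was -1.13 ± 0.43 (SE; edgeR, adjusted p = 0.554), and the unadjusted p was above 0.05 without CTR mouse 1, CTR mouse 5, SD mouse 2 or SD mouse 6. Sytl2, the most abundant of the 4 in CPM, averaged 46.9 ± 8.19 CPM in SD mice and 50.7 ± 8.39 CPM in CTR mice.

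Other genes of the vesicle cycle were counted on lists of their own in the same edgeR fit. Over all genes in that fit, 3.68% were lower and 4.65% higher at p of at most 0.05. With the fold cutoff as well, 0.88% were lower and 2.1% higher. The lists are short, so a count of 1 gene is not read as a trait of its list. Of 12 other SNAREs and of 10 genes for SNARE disassembly and chaperones, none had p of at most 0.05, and the medians of the log2 fold changes were 0.026 and -0.0070, beside 0.0015 for all genes. Nsf, the ATPase that pulls spent SNARE complexes apart, averaged 1196 CPM in SD mice and 1201 CPM in CTR mice. Of 33 docking and priming genes, 5 were lower and 0 higher at p of at most 0.05, and 1 passed the fold cutoff, with a median of -0.08. That gene was Rims3, a short RIM protein of the active zone, with 90.7, 97.3 and 82.9 CPM in SD mice, against 133, 181 and 119 CPM in CTR mice (log2 fold change -0.68 ± 0.14, SE, adjusted p = 0.513 in edgeR and 0.00296 in DESeq2). The others were the scaffold gene Pclo (-0.28), Tspoap1 and Rimbp2 for RIM-binding proteins (-0.27 and -0.28) and the tomosyn gene Stxbp5l (-0.22), and of these 5 all but Rimbp2 had groups that did not overlap.

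On the list of vesicle membrane and transmitter loading, 4 of 21 genes were higher and 1 was lower at p of at most 0.05. Slc17a6, the vesicular glutamate transporter VGLUT2 that thalamic neurons use and which is also on the thalamic list, had 46.3, 41.9 and 28.3 CPM in SD mice and 35.0, 75.2 and 71.8 CPM in CTR mice (log2 fold change -0.65, adjusted p = 0.573 in edgeR and 0.759 in DESeq2). Slc18a1 also passed the fold cutoff, with a log2 fold change of 1.13 at under 1 CPM in every mouse, and Sypl, Syngr2 and Slc17a8 were higher by 0.25, 0.32 and 0.46. Synaptophysin (Syp), the most abundant of them in CPM, averaged 1418 CPM in SD mice and 1401 CPM in CTR mice. Of 24 genes of vesicle endocytosis 1 was higher (Sh3gl3, an endophilin, 0.33), and of 8 other C2-domain tethers and sensors 1 was lower (Esyt1, -0.48, which tethers the endoplasmic reticulum to the plasma membrane).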

How the data were processed

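Hippocampal poly(A) RNA of 6 mice was sequenced on a HiSeq3000. The authors used Trim Galore for trimming, Hisat2 for alignment to mm10 and featureCounts for stranded counting that kept multi-mapping reads. SAMtools, Picard and DESeq2 also stand in the submitters' processing notes. Tool versions and the gene annotation: not given in the sources used here. Raw counts per gene and mouse make up the deposited table, with at least 40 counts per gene over the 6 mice. Its other columns and sheets hold the authors' DESeq2 results and were not used.

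Counts of all genes were tested with edgeR 4.0.16 (R 4.3.3, filterByExpr, TMM, glmQLFit and glmQLFTest, SD against CTR, all 6 mice, no covariate), which tested 15345 genes and removed 78, and p-values were adjusted over all of them by Benjamini-Hochberg. The fitted biological coefficient of variation (common dispersion) was 0.122, and standard errors were derived as the absolute log2 fold change over the root of F. The script was checked on simulated data. Levels are CPM with TMM factors. Levels per kb use the exon length of GENCODE M21 (GRCm38), where 62 of the 63 genes had 1 gene model (Vamp7 did not), and coordinates of genes are from the same annotation. Since multi-mapping reads were kept, values of genes that have near-identical copies are uncertain.

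The members and lists were chosen with earlier results of these data known. The genes named are those with p of at most 0.05, those with groups apart by 0.2 or more on the log2 scale, and in each role the gene of highest mean and of largest fold change; others are marked or give context, and some genes in the counts are not reported here by name. On the other vesicle cycle lists, the called genes or else the gene of highest mean are named, and further genes there were chosen after their values were seen. The alternatives were DESeq2 1.42.0, DESeq2 size factors, upper quartile factors, no filter, a mean count of at least 50, each mouse left out, and a replicate block.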

Additional observations from a re-analysis of the deposited data

How the results depend on the processing

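Of the 8 genes with p of at most 0.05, Syt2, Vamp1 and Vamp8 kept it in all 12 alternatives and Syt7 in 11. Doc2a kept it in 8 of 12, Stx3 in 7 of 12, Cplx3 in 6 of 12 and Sytl1 in 6 of 11. Over the 27 genes named by the rule, 295 of 322 alternative values stayed on their side of the threshold, 21 lost it, 6 gained it and 0 changed sign among the called ones. With each mouse left out in turn, 1 to 4 of the 63 genes passed the cutoffs of the study (1 to 2 higher and 0 to 3 lower). At p of at most 0.05, 1 to 4 were higher and 3 to 8 lower. These counts moved over all genes as well. With all mice 457 of all genes passed the cutoffs, and 713 were higher and 564 lower at p of at most 0.05. Without CTR mouse 1 these numbers were 382, 526 and 410, where the 63 genes had 3, 1 and 5. The number whose groups did not overlap was 8 to 23 (12.7 to 36.5%, beside 18.7 to 30.6% of all genes, since fewer mice separate more easily), and the median was -0.052 to -0.017. With a mean count of at least 50 and with DESeq2, 1 gene was called lower in each, the first because Sytl1 was not tested and the second because Cplx3 did not pass. Without CTR mouse 5, 4 genes were higher at p of at most 0.05 (Vamp8, Sytl4, Stxbp3 and Stxbp6), of which Sytl4 had few reads. Groups that did not overlap were also most frequent over all genes without that mouse (30.6%). Without SD mouse 2, and without SD mouse 6, 1 gene was called, Vamp8.

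The numbers 2 and 5 occur in both groups, and the deviations of the same-numbered mice correlated at 0.208 and 0.116 over 15345 genes, beside -0.128 and -0.111 for the crossed pairs. With only these pairs, the mice share only a number. A fit with a replicate block used the mouse number as the block. CTR mouse 1 and SD mouse 6 were each alone in their block, so its fold changes rest on mice 2 and 5 of each group. It called 1 gene (0 higher, 1 lower; 315 of all genes), with 2 higher and 3 lower at p of at most 0.05, a p whose share over all genes is not given here. The gene called was Syt15 (-1.32), none of Vamp8 (0.55), Cplx3 and Sytl1 was called, and Syt7 no longer had p of at most 0.05. Pairing and the smaller set of mice changed together in this fit, and their parts in these moves cannot be told apart.

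Depth limited the rarest genes: Sytl1, Syt15, Sytl4, Doc2g and Vamp5 had under 100 reads in every mouse. The median standard error of 0.10 over the 63 genes leaves small changes undetectable with 3 mice per group.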

Other observations

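The spread between mice was not even. Over the 63 genes the coefficient of variation had a median of 6.88% in SD mice and 10.6% in CTR mice, and 42 of the 63 varied more among CTR mice, beside 63.7% of all genes. CTR mouse 1 had the highest value of the 6 mice for 17 of the 63 genes (27.0%, beside 23.4% of all genes) and the lowest for 15 (23.8%, beside 22.9%).

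CTR mouse 5, the only female by its Xist reads, stood away in some of the rarer synaptotagmins but not in all. Syt10 had 9.43 CPM there and 9.09 CPM in SD mouse 6. Syt6, Syt9 and Syt15 each had their highest level there (17.3, 32.5 and 2.82 CPM), where the other 5 mice had at most 8.97, 19.1 and 0.744 CPM. The 9 measured markers of the medial habenula, a nucleus next to the hippocampus, summed to 232 CPM in the same mouse, against 90.2 to 107 CPM in SD mice and 93.9 to 97.5 CPM in the other CTR mice. Among them Gpr151 had 16.4 CPM in CTR mouse 5 and at most 2.32 CPM in any other mouse, and no marker was at 0. The parts of these cells and of sex in the level of the synaptotagmins were not tested. The pattern was noticed in these data, and these genes were picked after their values were seen.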
